A study of Mus musculus with 4 samples.

Results

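Sorted tumor dendritic cells and macrophages from mice given an interferon beta adenovirus were compared with those from mice given an empty adenovirus. The interferon beta library, Ad-mIFNB, kept 1810 cells and the empty virus library, Ad-Null, kept 8745, which together are 10555 of the 26882 kept cells of the 4 libraries of the study. A cell was kept when its barcode had at least 500 detected genes and at most 10% of its unique molecular identifiers (UMIs, counts of captured mRNA molecules) in mitochondrial genes. B16-F10 melanoma cells, an established mouse line, were placed under the skin of C57BL/6 mice (500000 cells), and the tumors received a virus on day 12. Ad-Null tumors received the NULL adenovirus and Ad-mIFNB tumors the mIFNB adenovirus, so cells of both libraries had been exposed to viral vector. Each library is a pool of 3 tumors treated alike, sorted for CD11c and MHC-II. The age and sex of the mice, the virus dose and the time from injection to sampling were not given in the sources used here. With 1 library per treatment there was no replicate check of any difference below, no test was made, and cells of a library are not replicates of its treatment.

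Type I interferons bind the paired receptor chains Ifnar1 and Ifnar2, and the kinases Jak1 and Tyk2 then phosphorylate Stat2 and other STAT proteins. With Irf9 these form the complex ISGF3, which binds interferon-stimulated response elements in promoters and switches on antiviral genes. In tumors, type I interferon is known for its action on dendritic cells, above all the cross-presenting cDC1, which take up tumor antigen and prime CD8 T cells.

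Cells were grouped by marker gates, each asking for at least 2 UMIs of every gate gene. The cDC1 gate used the chemokine receptor Xcr1 and the dead-cell receptor Clec9a. The Cd209a gate used that lectin, which marks cDC2 and monocyte-derived cells. The mature DC gate used the lymph-node homing receptor Ccr7 and the actin bundler Fscn1. The C1q gate used the complement chains C1qa, C1qb and C1qc, which mark tissue macrophages. Cells passing several gates (3.20% of Ad-mIFNB and 7.06% of Ad-Null cells) were kept apart, and 59.4% and 44.1% passed none. Gates are not full cell types, and the genes of a gate were left out of that gate's results.

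The promoters of the genes with the largest ratio shared by all 4 gates are shown so that the response element of ISGF3 can be looked for in them. They are the 250 bases before the RefSeq start on GRCm38.p6, on the gene's own strand, with each match to the core of the interferon-stimulated response element in capitals. The core was searched as GAAA, any 2 bases and GAAA again, or on the other strand TTTC, any 2 bases and TTTC. The windows are chr19:34607707-34607956 (Ifit3b), chr12:26456453-26456702 (Rsad2, minus strand), chr19:34640639-34640888 (Ifit1), chr19:34583279-34583528 (Ifit3), and for the 2 entries of Ifit2 chr19:34550444-34550693 and chr19:34550838-34551087.
Ifit3b: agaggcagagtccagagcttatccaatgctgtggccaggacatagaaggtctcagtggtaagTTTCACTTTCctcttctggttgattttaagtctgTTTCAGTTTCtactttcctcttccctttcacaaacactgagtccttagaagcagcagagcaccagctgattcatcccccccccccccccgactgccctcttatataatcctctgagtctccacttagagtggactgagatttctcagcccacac
Rsad2: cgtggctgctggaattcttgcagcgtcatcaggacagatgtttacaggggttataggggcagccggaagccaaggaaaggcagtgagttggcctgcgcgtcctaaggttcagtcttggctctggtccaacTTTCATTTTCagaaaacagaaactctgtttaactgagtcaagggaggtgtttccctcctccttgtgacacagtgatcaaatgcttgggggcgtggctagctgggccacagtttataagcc
Ifit1: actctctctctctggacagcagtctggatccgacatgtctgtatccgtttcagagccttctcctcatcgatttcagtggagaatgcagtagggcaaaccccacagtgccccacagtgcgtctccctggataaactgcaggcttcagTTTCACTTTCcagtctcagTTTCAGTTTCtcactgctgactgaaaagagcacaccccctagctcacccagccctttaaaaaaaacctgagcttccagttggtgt
Ifit3: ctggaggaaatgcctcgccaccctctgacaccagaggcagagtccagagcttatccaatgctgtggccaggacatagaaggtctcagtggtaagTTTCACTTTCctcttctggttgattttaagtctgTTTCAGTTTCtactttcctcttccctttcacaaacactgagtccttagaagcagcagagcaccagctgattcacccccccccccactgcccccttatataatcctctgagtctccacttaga
Ifit2 (entry 1): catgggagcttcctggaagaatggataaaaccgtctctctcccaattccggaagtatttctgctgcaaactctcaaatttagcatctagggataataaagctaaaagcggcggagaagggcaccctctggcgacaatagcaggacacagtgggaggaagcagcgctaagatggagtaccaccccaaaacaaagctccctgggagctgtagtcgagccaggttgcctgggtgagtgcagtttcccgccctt
Ifit2 (entry 2): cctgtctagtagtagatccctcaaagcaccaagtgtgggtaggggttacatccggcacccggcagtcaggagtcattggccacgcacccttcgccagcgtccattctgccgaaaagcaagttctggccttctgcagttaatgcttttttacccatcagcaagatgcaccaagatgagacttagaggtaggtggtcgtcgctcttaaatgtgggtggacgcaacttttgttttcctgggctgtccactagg
Ifit3b and Ifit3 each held 2 matches, 24 bases apart, starting 188 and 154 bases before the start in Ifit3b and 156 and 122 in Ifit3. Their windows share an unbroken run of 169 bases, and reads of near copies such as these may be split between them. The 2 matches of Ifit1 lay 9 bases apart, at 104 and 85, and the single match of Rsad2 lay at 120. Neither Ifit2 window held these letters.

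Over the full table (300 bases, both strands, 27025 genes) the motif was found in 3.99% of genes. Among genes measured over all kept cells it was found in 24.7% of those at least 1.5-fold higher in Ad-mIFNB (65 of 263 with an entry), in 4.44% of those at least 1.5-fold lower (4 of 90) and in 3.79% of the rest (162 of 4273). Of the genes higher in all 4 gates, 31 of 97 held it (32.0%), as did 19 of 38 type I interferon effector genes. The gamma-activated site TTCNNNGAA, an element of interferon gamma responses, was in 9.55% of all genes, 11.8% of the higher and 6.67% of the lower ones, and in 8.25% of those higher in all 4 gates. A match is a description of letters and does not show binding.

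Kept cells had a median of 13615.5 UMIs and 3152.5 genes in Ad-mIFNB and 15277 and 3427 in Ad-Null, with 28541575 and 160828179 UMIs in all. Median depth within a gate differed little, for example 23061 and 23522 UMIs in the cDC1 gate and 12133.5 and 13528 in the mature DC gate. Transcripts of the sort markers were present in both, with Itgax (CD11c) at 103 and 95.9 counts in 1000000 UMIs and the class II gene H2-Ab1 among the abundant genes. The 2 libraries shared 3 barcodes. Doublets were left in, and values without them are given beside the results they bear on and in the closing section. For those values 612 cells of Ad-Null and 2 of Ad-mIFNB were taken out, so almost only the Ad-Null side changes. UMIs were summed over cells and scaled to CPM (counts in 1000000 UMIs). Ratios are log2 of Ad-mIFNB over Ad-Null after adding 5 CPM to both, which understates the ratio of low genes. "Higher" and "lower" mean at least 1.5-fold on this scale, among genes of at least 20 CPM in either library and 50 UMIs over both. Brackets give 95% Poisson intervals for CPM and exact binomial (Clopper-Pearson) intervals for shares. For a difference of 2 shares they give 95% Newcombe intervals, which combine the Wilson limits of the 2 shares and are not exact. These intervals take in counting error alone, and the spread from tumor to tumor is unknown.

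The gene carried by the virus was scarce in both libraries. Ifnb1 (chromosome 4, 88522025 to 88522774) reached 3.15 CPM (2.54 to 3.88) in kept Ad-mIFNB cells and 0.628 (0.512 to 0.763) in Ad-Null. Its 90 UMIs in Ad-mIFNB lay in 16 cells, with 21 in 1 cell, and the 101 UMIs of Ad-Null lay in 35 cells. Reads from the 3' end cannot be assigned to the vector or to the mouse gene here. Of the 20 interferon genes searched, none reached the level needed to be measured.

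Over all kept cells, 330 of 5748 measured genes were higher in Ad-mIFNB (5.74%) and 142 were lower (2.47%). The median of all measured genes was -0.01. A sum over all cells mixes cell types, and in it fewer cells of a type and less RNA per cell cannot be told apart. The gates were therefore compared one by one, with 165 and 742 cells of Ad-mIFNB and Ad-Null in the cDC1 gate, 128 and 1553 in the Cd209a gate, 144 and 316 in the mature DC gate and 239 and 1660 in the C1q gate. Genes higher in Ad-mIFNB were 5.26% of those measured in the cDC1 gate, 4.76% in the Cd209a gate, 8.02% in the mature DC gate and 4.99% in the C1q gate. Lower genes were 3.05%, 2.26%, 3.78% and 2.11% in the same order. In cells of no gate 7.16% of 5823 measured genes were higher and 5.74% were lower. The counts of list members below are to be read beside these shares. Of 4336 genes measured in every gate, 111 were higher in all 4 (2.56%) and 12 were lower in all 4 (0.277%). Of the 330 genes higher over all cells, 237 were measured in every gate; 111 of them were higher in each gate and 17 in no gate.

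The 111 genes higher in every gate were led by the Ifit family, antiviral proteins that bind foreign RNA, and by Rsad2, the antiviral enzyme viperin. Ifit3b was at 38.7 CPM (32.8 to 45.3) against 0.658 (0.34 to 1.15) in the cDC1 gate, at 233 against 17.1 in the Cd209a gate, 127 against 14.2 in the mature DC gate and 128 against 9.78 in the C1q gate. Rsad2 (chromosome 12, 26442746 to 26456452) reached 413 CPM (393 to 433) against 33.0 (30.4 to 35.7) in the cDC1 gate. In the Cd209a gate Rsad2 was at 908 against 108, in the mature DC gate at 722 against 114 and in the C1q gate at 1094 against 139. Ad-mIFNB lay above Ad-Null in all 4 gates for both genes, with log2 ratios of 2.78 to 3.43 for Ifit3b and 2.62 to 3.46 for Rsad2.

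Levels and ratios were ordered differently across the gates. Ifit3 was lowest in Ad-Null in the cDC1 gate, at 7.73 CPM against 68.0 to 109 in the other gates, and had its largest ratio there (3.95, against 2.48 to 2.86). Its Ad-mIFNB level was also lowest in the cDC1 gate, at 192 CPM against 457 to 821. Ifit2 behaved otherwise, reaching 567 CPM in the cDC1 gate from 34.2, beside 680, 337 and 408 CPM in the Cd209a, mature DC and C1q gates. Isg15, a ubiquitin-like protein joined to viral and host proteins (chromosome 4, 156199424 to 156200818), was the most abundant of these genes. It was at 3801 CPM against 1149 in the mature DC gate and at 1504 against 312 in the cDC1 gate.

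Others in this group were Cmpk2, a mitochondrial nucleotide kinase next to Rsad2 in the genome (1.92 to 2.55), the exonuclease Isg20 (1.85 to 2.60) and the schlafen gene Slfn4 (1.58 to 3.16). Apod, a lipocalin that carries small lipids, was, with Slfn4, one of the 2 among the 10 leading genes that were in none of the lists used here. Apod was at 119 CPM (104 to 135) against 11.7 (8.88 to 15) in the mature DC gate, with ratios of 2.57, 1.77 and 1.89 in the cDC1, Cd209a and C1q gates.

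**Figure D1:**
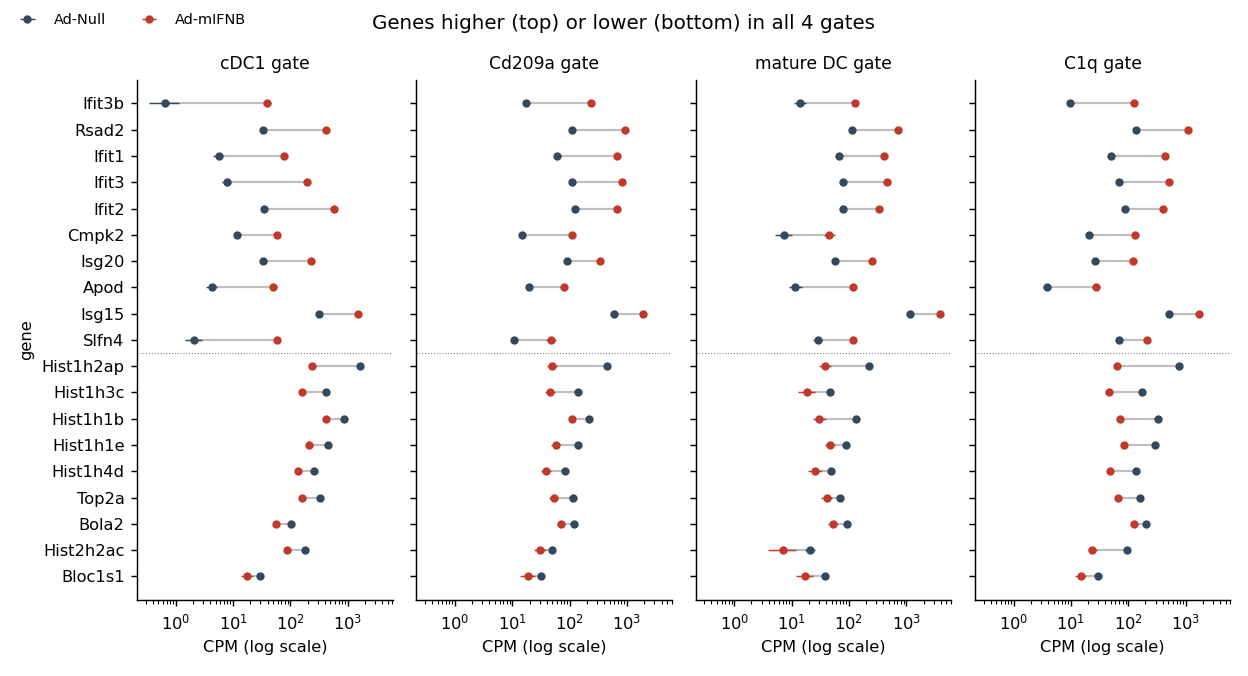
CPM (log axis) of the 10 genes with the largest ratio shared by all gates (top) and 9 of the 10 with the lowest (bottom) in each of the 4 marker gates, with Ad-Null in dark blue and Ad-mIFNB in red and bars for 95% Poisson intervals of the summed UMIs. Rsad2 runs from 33.0 to 139 CPM in Ad-Null and from 413 to 1094 in Ad-mIFNB, while Hist1h2ap lies higher in Ad-Null in every panel.

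Of 51 type I interferon effector genes, 49 were in the files, and all 49 were higher over all cells, with ratios from 0.66 (Trim25, a ubiquitin ligase of RNA sensing) to 3.45 (Ifit3b) and a median of 1.38. In the gates 44 of 45 measured members were higher in the cDC1 gate (median 1.49), 44 of 49 in the Cd209a gate (1.19), 46 of 49 in the mature DC gate (1.38) and 46 of 49 in the C1q gate (1.23). None was lower in any gate. The all-gene medians were -0.05, -0.01, 0.05 and 0.01. Of all measured genes 5.74% were higher over all cells, and 4.76% to 8.02% in the gates. The effector list was chosen with earlier results of these data known, so its counts describe the data and are not independent support. The members short of 1.5-fold were Ly6e (0.56) in the cDC1 gate, and elsewhere included Oas1a, an oligoadenylate synthetase, at 0.52, 0.57 and 0.51 in the Cd209a, mature DC and C1q gates. Of the 111 genes higher in every gate, 39 were effectors of this list. Summed over the list, Ad-mIFNB was at 25199 CPM and Ad-Null at 10141, beside 10801 in Ad-MEM40 and 23963 in Ad-COMBO, the libraries given the ISF35 virus alone or both viruses.

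Single cells were scored by their effector UMIs after each was thinned to 2000 UMIs, which left out 126 shallower cells of Ad-mIFNB and 359 of Ad-Null. The median cell had 48 effector UMIs in Ad-mIFNB (2.4% of its UMIs) and 18 in Ad-Null (0.9%). The range from the 10th to the 90th percentile spanned 16 to 97 UMIs for Ad-mIFNB and 7 to 38 for Ad-Null, so the libraries overlapped. Of Ad-mIFNB cells, 63.1% lay above the 90th percentile of Ad-Null, and no cell of Ad-mIFNB and 8 of Ad-Null had 0. Median scores were 28 against 10 in the cDC1 gate, 51.5 against 24 in the Cd209a gate, 35 against 12 in the mature DC gate and 43 against 18 in the C1q gate. Cells passing no gate had 55 against 18. The cDC1 gate was lowest in both libraries. In the mature DC gate 49.6% of Ad-mIFNB cells exceeded the 90th percentile of the same gate in Ad-Null, against 58.6% to 67.4% in the other gates, and its Ad-mIFNB cells ran from 8 to 87 UMIs between the 10th and 90th percentiles.

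**Figure D2:**
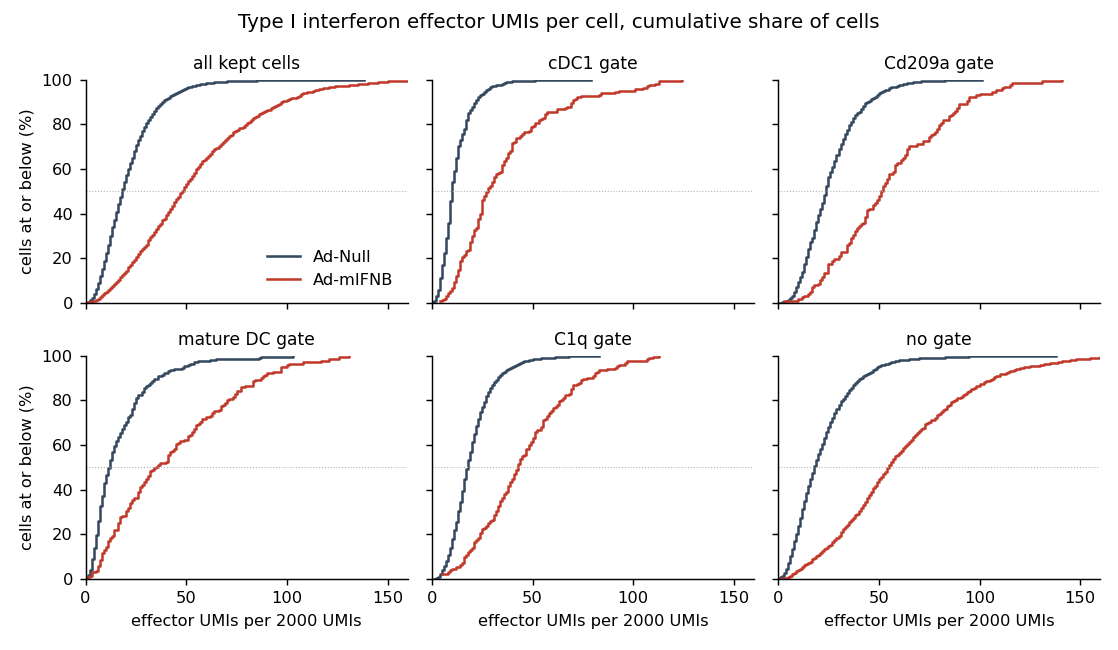
Cumulative share of cells (vertical axis, percent) by type I interferon effector UMIs per 2000 UMIs of the cell (horizontal axis), for all kept cells, the 4 gates and cells of no gate, in Ad-Null (dark blue) and Ad-mIFNB (red). Medians over all kept cells are 18 and 48, and in each panel the red curve lies to the right over most of its length while the 2 overlap.

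Shares of cells with a UMI, thinned the same way, were also higher in Ad-mIFNB. Ifit3 was seen in 51.0% of Ad-mIFNB cells (48.6 to 53.4) and 10.3% of Ad-Null cells (9.65 to 11), and without thinning in 72.4% and 33.3%. In the cDC1 gate it was in 19.4% (13.7 to 26.3) of Ad-mIFNB cells and 1.08% (0.467 to 2.11) of Ad-Null cells. Ifit2 in that gate was in 52.1% and 4.72%. Isg15 was in 85.5% and 47.8% of all kept cells. Free RNA in droplets adds UMIs to cells that do not express a gene, and its part in these shares was not tested.

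The receptors were level and the transcription factors that follow them were higher. Ifnar1 was at 66.1 CPM against 75.0 (-0.17) and Ifnar2 at 155 against 128 (0.26) over all cells, and Jak1 and Tyk2 were at -0.06 and 0.10. Of 11 receptor and relay genes 3 were higher over all cells and none was lower (median 0.19). Among them were Stat2, at 196 CPM against 81.6 (1.21), and Irf9, at 142 against 79.4 (0.80). Stat2 was higher in all 4 gates (0.92 to 1.12), and Irf9 in 3 of them (0.61 to 0.97), with 0.57 in the Cd209a gate, short of 1.5-fold.

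Of 7 measured IRF transcription factors only Irf7, which amplifies interferon production, was higher over all cells, at 913 CPM (902 to 924) against 228 (226 to 231). It was higher in every gate, from 1.51 in the C1q gate to 2.14 in the cDC1 gate. Irf8, the factor of the cDC1 lineage, was level in the cDC1 gate (2030 against 1959 CPM) and lower in the Cd209a gate (88.3 against 152 CPM, -0.76), where no member of the list was lower once doublets were removed.

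Brakes on the pathway were among the higher genes. Usp18, also in the effector list, removes Isg15 and blocks the receptor, and was at 286 CPM against 60.6 (2.15). Socs1, an inhibitor of Jak kinases, was at 71.7 against 29.2 (1.16). Both were higher in all 4 gates, Usp18 by 1.33 to 2.19 and Socs1 by 0.77 to 1.5. Of 9 measured brakes 3 were higher over all cells (median 0.22), the third being Socs2, which was at 0.29 and 0.47 in the mature DC and C1q gates and too low to be measured in the other 2.

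Of 14 measured nucleic acid sensors 11 were higher and none was lower over all cells (median 1.09), with 8 to 10 higher in each gate. Of all measured genes 5.74% were higher over all cells. Ifih1, Ddx58, Dhx58, Zbp1 and Eif2ak2 are also in the effector list, so their part of this count repeats the result above. Ifih1, the sensor MDA5 of long double-stranded RNA, was at 266 CPM against 80.5 (1.66), and Ifi204, a DNA sensor, at 636 against 203 (1.62). Ddx58, the sensor RIG-I, was at 1.33 and Zbp1, a sensor of Z-form nucleic acid, at 1.12. Tlr7, an endosomal sensor of single-stranded RNA, had its largest ratio in the mature DC gate (24.6 against 4.94 CPM, 1.57). Of 15 measured GTPases best known as interferon gamma targets, 10 were higher over all cells (median 0.66). Irgm1 led them in every gate (1.5 to 1.76). Gbp2, a guanylate-binding protein, was lower in the cDC1 gate (27.1 against 48.5 CPM, -0.74) and in the mature DC gate (213 against 348 CPM, -0.69), the only member that was lower in a gate. With doublets removed no member was lower in the cDC1 gate.

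MHC class I genes, which present peptides to CD8 T cells, were higher in part, and class II genes were level. Of 17 class I and loading genes 9 were higher over all cells and none was lower (median 0.59). The count was 9 in the mature DC gate, 7 in the cDC1 and C1q gates and 4 in the Cd209a gate. H2-T22, a nonclassical class I gene, was at 326 CPM against 109 (1.54) and was higher in each gate (0.97 to 1.52). The classical gene H2-K1 was at 4030 CPM (3942 to 4119) against 2402 (2360 to 2445) in the mature DC gate (0.75) and at 1462 against 1009 in the cDC1 gate (0.53, short of 1.5-fold). Reads of H2-Q genes, which are near copies, may be shared. Tap1, a subunit of the peptide transporter, was below 1.5-fold in every gate (0.22 to 0.39). Of 7 immunoproteasome genes only Psme2b was higher over all cells (0.74, list median 0.19), and none of 14 constitutive subunits was higher or lower (0.02). None of 12 class II presentation genes was higher or lower over all cells (0.07). In the mature DC gate H2-Ob and H2-DMa, which edit the peptides loaded, were lower (-0.78 and -0.73).

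Of costimulatory and priming ligands, 5 of 14 measured members were higher in the mature DC gate and none was lower (median 0.38), and 5 of 9 were higher in cells of no gate (0.60). The other 3 gates had at most 1 higher each. In the mature DC gate Il27, a subunit of interleukin 27, was at 40.1 CPM (31.8 to 50.0) against 11.5 (8.71 to 14.8), and its partner Ebi3 at 113 against 64.9 (0.76). Cd40, the receptor for T cell help, was at 342 CPM (317 to 368) against 191 (179 to 203), Il15 at 59.2 against 32.2 and Cd70 at 42.6 against 23.5. Cd80 and Cd86, the ligands of CD28, were at 0.21 and 0.18. Il12b, the shared subunit of interleukins 12 and 23, was at 108 CPM against 55.7 over all cells (0.89), but at 802 against 656 in the mature DC gate (0.29), and it was lower in the cDC1 gate (13.6 against 24.9 CPM, -0.69) and the C1q gate (7.51 against 22.4, -1.13). Of its 54 UMIs in the cDC1 gate of Ad-mIFNB, 34 lay in 1 cell. It was higher in cells of no gate (65.6 against 41.5 CPM, 0.60) and in cells of several gates (1.53). Cells of the mature DC gate, where Il12b was highest, were a larger share of Ad-mIFNB (7.96% against 3.61%). The part of this share in the all-cell ratio of Il12b was not tested.

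Of 24 NF-kB family and target genes 5 were higher and 2 lower over all cells, beside 5.74% and 2.47% of all measured genes. In the mature DC gate Il6 (95.8 against 31.6 CPM, 1.46) and Tnf (249 against 109 CPM, 1.16) were higher. Il1b, the inflammasome cytokine, was at 374 CPM against 666 over all cells (-0.83), with -1.11 in the cDC1 gate, -0.77 in the Cd209a gate, -0.43 in the mature DC gate and -0.95 in the C1q gate. The checkpoint ligand Cd274 (PD-L1) was at 245 CPM (232 to 259) against 121 (117 to 124) in the C1q gate (0.99), at 0.62 and 0.72 in the cDC1 and Cd209a gates, and at 0.25 in the mature DC gate, where both libraries were highest (532 and 447 CPM).

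Chemokines split by gene and by gate. Over all cells 4 of 17 measured members were higher, Ccl5, Ccl4, Ccl3 and Cxcl10, and 4 were lower, Cxcl9, Pf4, Cxcl1 and Cxcl2. Cxcl9 and Cxcl10 draw T cells through the shared receptor CXCR3, and they differed in opposite directions. Cxcl10 (chromosome 5, 92346638 to 92348889) was at 145 CPM against 82.9 in the cDC1 gate, 1237 against 508 in the Cd209a gate, 626 against 320 in the mature DC gate and 744 against 325 in the C1q gate, so it was higher in each (0.77 to 1.27). Cxcl9 (chromosome 5, 92321347 to 92328079) had 287 CPM (271 to 305) against 387 (378 to 397) in the cDC1 gate. In the Cd209a gate Cxcl9 was at 146 against 386, in the mature DC gate at 171 against 706 and in the C1q gate at 89.0 (81.2 to 97.4) against 581 (573 to 589). The ratio ran from -0.42 in the cDC1 gate, short of 1.5-fold, to -2.64 in the C1q gate. In thinned cells of the cDC1 gate Cxcl9 was seen in 23% (16.8 to 30.2) for Ad-mIFNB against 22.6% (19.7 to 25.8) for Ad-Null, and in 13.6% (9.46 to 18.6) and 27.0% (24.9 to 29.2) of those of the C1q gate.

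Cxcl9 is best known as a target of interferon gamma made by T and NK cells, and markers of those cells were scarce in the sort. None of their 12 markers was measured, and their summed level was 24.5 CPM in Ad-mIFNB and 7.01 in Ad-Null over all cells. The sort for CD11c and MHC-II was not aimed at T or NK cells, so these levels do not give their number in the tumors. The part of interferon gamma in the Cxcl9 difference was not tested.

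Ccl5, which draws T cells and monocytes, was at 10925 CPM (10780 to 11071) against 4939 (4878 to 5001) in the mature DC gate and was seen in 143 of its 144 Ad-mIFNB cells. It was also higher in the C1q gate (544 against 151 CPM, 1.82) and the cDC1 gate (68.3 against 31.9, 0.99), but not in the Cd209a gate (50.4 against 68.2, -0.40). In the cDC1 gate 33.5% of its Ad-mIFNB UMIs lay in 1 cell. Over all cells its ratio was 2.05 and in cells of no gate 2.44, both above that of each gate. Cells of no gate hold none of the mature DC gate. The part of cell mix in the all-cell ratio was not tested. Ccl4 and Ccl3, which draw T cells and other leukocytes, had their largest ratios in the mature DC gate, with Ccl4 at 2790 CPM (2717 to 2864) against 500 (481 to 520) and Ccl3 at 548 against 133. Cxcl2, which draws neutrophils, was lower in the cDC1 gate (13.8 against 91.3 CPM), the Cd209a gate (291 against 625) and the mature DC gate (174 against 649), and at -0.42 in the C1q gate, where it was most abundant (2412 against 3221 CPM).

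**Figure D3:**
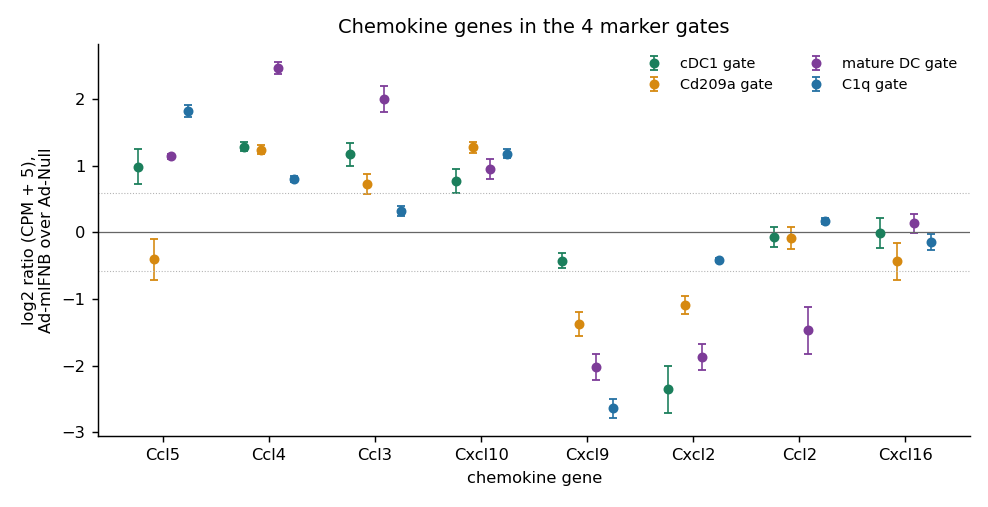
Log2 ratio (CPM + 5) of Ad-mIFNB over Ad-Null for 8 chemokine genes in the 4 marker gates, with dotted lines at 1.5-fold. Bars span the extreme ratios formed from the 95% Poisson limits of the 2 libraries. They are wider than a 95% interval of the ratio. Cxcl10 lies above the upper line in every gate, and Cxcl9 runs from -0.42 in the cDC1 gate to -2.64 in the C1q gate.

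Sct, the peptide hormone secretin, was at 158 CPM (141 to 176) against 3.95 (2.42 to 6.11) in the mature DC gate, where 36 of 144 Ad-mIFNB cells and 10 of 316 Ad-Null cells had a UMI. It was at 62.3 against 3.46 in the cDC1 gate (2.99), with 31% of its Ad-mIFNB UMIs there in 1 cell, and too low to be measured in the other 2 gates. Sct was also high in Ad-COMBO over all cells (60.0 CPM, against 53.2 in Ad-mIFNB) and low in Ad-MEM40 (2.35). Lta, lymphotoxin alpha, was at 79.3 CPM (67.4 to 92.6) against 6.72 (4.66 to 9.39) in the mature DC gate, with 44.3% of its UMIs in 1 cell. Hspb1, a small heat shock protein, was at 126 CPM against 9.29 there, but 207 of its 252 UMIs came from 1 cell. Lipg, a lipase that acts on lipoproteins, was at 144 CPM (134 to 155) against 15.9 (14.6 to 17.2) in the C1q gate and at 72.3 against 6.92 in the mature DC gate. It was also higher in the Cd209a gate (1.41) and too low to be measured in the cDC1 gate.

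Markers of plasmacytoid DC moved with the mature DC gate. Of 10 pDC markers 8 were measured there and 6 were higher (Klk1, Ly6d, Ccr9, Bst2, Siglech and Cox6a2, median 1.4), with a summed level of 1409 CPM in Ad-mIFNB and 592 in Ad-Null; Bst2, also an effector, made up most of it. Siglech UMIs lay in 4 of 144 Ad-mIFNB cells and 6 of 316 Ad-Null cells. Without those cells 1 of the markers was higher, a count that partly follows from choosing the cells by Siglech, itself a marker. The other values then were 4.21 for Sct and 2.90 for Lta, Hspb1 was at 1.00 in place of 3.20, and 436 genes were higher and 228 lower in place of 429 and 202.

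Ly6c2, which belongs to the Ly6 surface proteins and labels inflammatory monocytes, was higher in every gate. It was at 517 CPM (495 to 540) against 78.1 (74.1 to 82.2) in the cDC1 gate, 309 against 81.0 in the Cd209a gate, 477 against 50.2 in the mature DC gate and 186 against 66.1 in the C1q gate. In cells of no gate it reached 1231 CPM against 171, and the part of free RNA in the gates was not tested. Plac8, another gene of Ly6c2-bearing monocytes, was higher in the cDC1 and mature DC gates (0.90 and 0.70), while the monocyte markers Ccr2 and Fn1 were lower in 2 gates each. Fcgr1, the high-affinity Fc receptor CD64 often used to tell macrophages from DC, was higher in each gate, from 0.71 in the C1q gate to 1.52 in the cDC1 gate, where it was at 67.3 CPM (59.5 to 75.8) against 20.2 (18.2 to 22.4).

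In the C1q gate, Saa3, an acute-phase serum amyloid gene, had the largest ratio (405 CPM, 388 to 422, against 34.3, 32.4 to 36.3). Its UMIs lay in 27 of 239 Ad-mIFNB cells, 36.8% of them in 1 cell, and in 114 of 1660 Ad-Null cells. Saa3 was also above Ad-Null in Ad-MEM40 (138 CPM in that gate) and highest in Ad-COMBO (814). Ctsl, the lysosomal protease cathepsin L, was at 1342 CPM against 806 (0.73, and 0.53 in thinned cells, short of 1.5-fold). Melanoma markers moved with the C1q gate. All 8 measured were higher there, at a summed 1004 CPM against 249, and 68.8% of the Ad-mIFNB UMIs of Pmel, a melanosome protein, lay in 1 cell. Without the cells with 2 UMIs of Dct, Pmel or Tyrp1 (19 of 239 and 267 of 1660), 1 melanoma marker was higher and Saa3 was at 3.08. Those cells were chosen by UMIs of melanoma markers, so the marker count without them is not an independent check.

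Of 23 lysosome and phagocytosis genes in the C1q gate 3 were higher, Ctsl, Fcgr1 and Fcgr4, and none was lower. Of all genes measured in that gate 4.99% were higher and 2.11% lower.

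Retnla, a secreted protein of alternatively activated macrophages (chromosome 16, 48842551 to 48844461), was lower in the 2 gates where it was measured, and over all cells (13.6 against 206 CPM). In the C1q gate it was at 41.7 CPM (36.4 to 47.5) against 351 (345 to 357), with UMIs in 17 of 239 and 375 of 1660 cells. In the Cd209a gate it had no UMI in Ad-mIFNB and 2489 in Ad-Null (92.4 CPM), which is at least 70.8-fold lower when 3 UMIs are taken as the limit. Of the Ad-Null cells, 22.6% of the C1q gate had a Retnla UMI at a median depth of 18285.5 UMIs, 13.4% of the Cd209a gate at 15634 and 15.9% of the cDC1 gate, which should lack the gene, at 23522. After thinning the shares were 7.94%, 2.78% (2.02 to 3.73) and 1.35% (0.648 to 2.46). The share of the Cd209a gate was thus below that of the cDC1 gate without thinning and above it after thinning, with overlapping intervals. The part of free RNA in the Ad-Null level of the Cd209a gate was not tested.

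Of 15 measured genes of alternative activation and monocyte-derived cells in the C1q gate, 5 were lower (Retnla, F13a1, Lyz1, Vcan and Mrc1) and 2 were higher (Folr2, a folate receptor, at 133 against 72.2 CPM, and Ear2). With doublets removed 1 member was higher. Mrc1, the mannose receptor, was at 291 against 487 CPM (-0.73). Fn1, fibronectin, was level in the C1q gate (325 against 315 CPM) but at 3.91 against 72.4 in the Cd209a gate and 4.01 against 56.8 in the mature DC gate. Lyz2, lysozyme, did likewise, at 3190 against 3738 CPM in the C1q gate, 80.9 against 463 in the Cd209a gate and 61.7 against 358 in the mature DC gate.

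Markers of macrophages moved with these genes outside the C1q gate. Of 8 macrophage markers measured in the Cd209a gate 6 were lower, and of 9 in the mature DC gate 6 were lower. Their summed levels were 401 against 500 CPM and 229 against 359.5. Of all measured genes 2.26% and 3.78% were lower in these gates. C1qa itself was at 2.51 against 19.1 CPM in the cDC1 gate, 5.22 against 23.6 in the Cd209a gate and 10.5 against 25.3 in the mature DC gate. With doublets removed, 5 macrophage markers were lower in each of the Cd209a and mature DC gates, lower genes were 101 in place of 122 in the Cd209a gate and 164 in place of 202 in the mature DC gate, and in the mature DC gate Fn1 was at -1.99 in place of -2.78 and Lyz2 at -2.0 in place of -2.44. In the cDC1 gate lower genes were 166 in place of 165. Nearly all cells taken out as doublets were of Ad-Null, so these changes cannot be credited to doublets alone. The part of free macrophage RNA was not tested.

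Cell cycle genes and replication-dependent histone genes were lower in Ad-mIFNB. Of 29 measured cell cycle genes 18 were lower and none was higher over all cells (median -0.72), where 2.47% of all measured genes were lower. In the cDC1 and C1q gates 16 of 32 were lower (medians -0.63 and -0.60), in the Cd209a gate 6 of 20 and in the mature DC gate 3 of 18, with 2 higher there. Of all genes measured in a gate 2.11% to 3.78% were lower, and 8.02% were higher in the mature DC gate. Top2a, the topoisomerase of dividing cells, was at 160 against 326 CPM in the cDC1 gate and 66.9 against 162 in the C1q gate. Mki67 was seen in 13.9% (9.05 to 20.2) of thinned cDC1 gate cells in Ad-mIFNB against 29.1% (25.9 to 32.5) in Ad-Null, and in 10.2% (6.63 to 14.7) and 21.2% (19.2 to 23.2) in the C1q gate.

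Of 16 measured histone genes 14 were lower (median -1.23). Hist1h2ap (chromosome 13, 21833026 to 21833507) was at 81.5 CPM in Ad-mIFNB, 82.0 in Ad-COMBO, 270 in Ad-MEM40 and 725 in Ad-Null. Its ratio ran from -2.39 in the mature DC gate to -3.50 in the C1q gate. Histone genes are near copies, and most of their mRNAs lack the poly(A) tail by which this chemistry captures RNA.

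Hist1h2ap was highest in Ad-Null. Ad-MEM40, which received no interferon beta virus, lay between Ad-Null and the libraries given that virus, Ad-mIFNB and Ad-COMBO. Top2a was near level between Ad-Null and Ad-MEM40, with 170 and 166 CPM, and was at 75.6 in Ad-mIFNB and 79.6 in Ad-COMBO. Bola2 and Bloc1s1, small genes of iron-sulfur handling and of vesicle traffic, were also lower in every gate (-0.68 to -0.80 and -0.62 to -0.96), although in cells thinned to 2000 UMIs Bola2 was at -0.43 in the Cd209a and C1q gates. Why Hist1h2ap differed between Ad-Null and Ad-MEM40 was not tested.

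**Figure D4:**
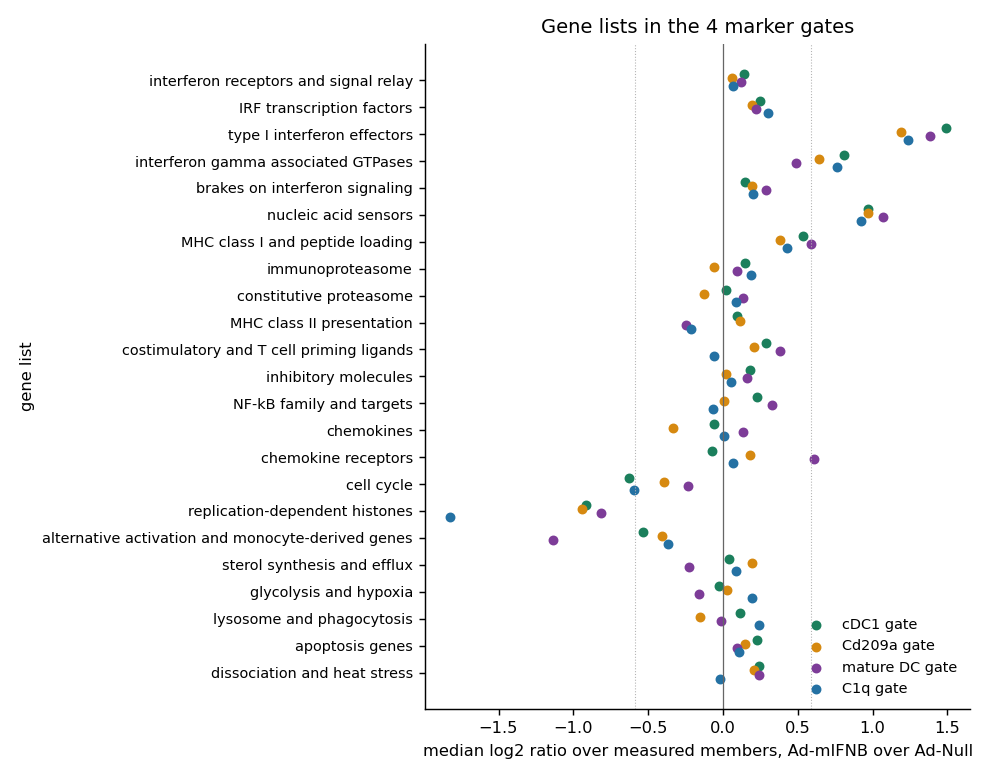
Median log2 ratio of Ad-mIFNB over Ad-Null over the measured members of each gene list (vertical axis) in the 4 marker gates (colors), with dotted lines at 1.5-fold. Type I interferon effectors lie between 1.19 and 1.49 and histone genes between -0.81 and -1.82.

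Lists that were near level over all cells included sterol synthesis and efflux (none of 16 members higher or lower, median 0.05) and glycolysis and hypoxia (none of 19, -0.17), although 6 of 19 hypoxia genes were lower in cells of no gate. Of 17 apoptosis genes 1 was higher, Daxx, an interferon-induced chaperone (1.56), and it was higher in each gate (1.23 to 1.49). Of 16 dissociation and heat stress genes, which respond to tissue digestion, 1 was higher over all cells, Hspa1a (0.70, list median 0.21). Both counts stand beside 5.74% of all measured genes that were higher over all cells. Hspa1a and its near copy Hspa1b were at 1.24 and 1.03 in the Cd209a gate.

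The shares of the gates differed between the libraries. The cDC1 gate held 9.12% of Ad-mIFNB cells (7.83 to 10.5) and 8.48% of Ad-Null cells (7.91 to 9.09), a difference of 0.631 percentage points (-0.748 to 2.15) whose interval includes 0. With gates of 1 UMI the difference was 1.74 points (0.173 to 3.44) and with gates of 3 UMIs 1.39 (0.15 to 2.78), both with intervals above 0. With the stricter cell filter it was 0.72 (-0.892 to 2.5) and with doublets removed 0.507 (-0.886 to 2.04). In thinned cells it was 0.0465 (-0.169 to 0.452), and these last intervals include 0. All of them take in counting error alone. The Cd209a gate held 7.07% (5.93 to 8.35) against 17.8% (17.0 to 18.6), and the C1q gate 13.2% (11.7 to 14.9) against 19.0% (18.2 to 19.8). The mature DC gate held 7.96% (6.75 to 9.30) against 3.61% (3.23 to 4.03). Cells of several gates, which include doublets, were 3.20% (2.44 to 4.12) and 7.06% (6.53 to 7.61). Because the cells came from a CD11c and MHC-II sort, the shares do not count cells per tumor, and a gate needs UMIs of its genes, so depth and the level of those genes move it.

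**Figure D5:**
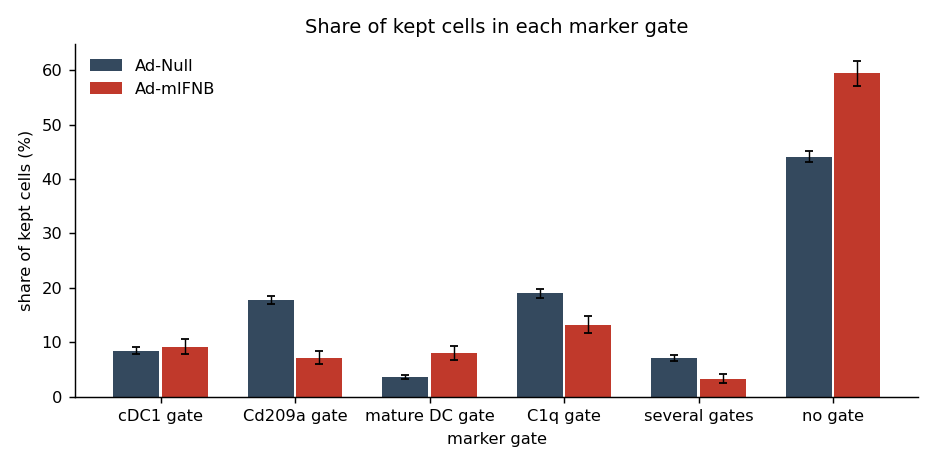
Share of kept cells (vertical axis, percent) in each marker gate, in several gates and in no gate for Ad-Null (dark blue) and Ad-mIFNB (red), with 95% exact binomial intervals. The mature DC gate is at 3.61% and 7.96%, the Cd209a gate at 17.8% and 7.07%, and the intervals of the cDC1 gate overlap.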

How the data were processed

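Droplet 3′ v2 single-cell RNA libraries, per the labels' protocols, gave 1 UMI count matrix each. The deposited UMI counts are whole numbers per gene and barcode and are not normalized, per the file headers. The submitters' processing notes name Cell Ranger 3.0, Seurat 4.0 and mm10, while the matrix headers name cellranger 6.0.0. Members, gates and gene lists were chosen with earlier results of these data known.

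Barcodes with at least 500 genes and at most 10% mitochondrial UMIs were kept. UMIs were summed over all cells and over each gate (2 UMIs of every gate gene) and scaled to CPM, and log2 ratios used a pseudocount of 5 CPM. A gene was measured at 20 CPM in either library and 50 UMIs over both. Genes eligible to be named were the 12 highest and 12 lowest ratios over all cells and the 6 highest and 6 lowest of each gate (at least 50 CPM in either library), the 10 highest and 10 lowest shared by all 4 gates, up to 8 genes past 1.5-fold in opposite directions in 2 gates, and list members. No list value is a test. Of 569 list genes, 6 were not used, and Aldoa was among them because 2 IDs share the symbol. Scrublet in scanpy marked 2 cells of Ad-mIFNB and none of Ad-Null, so it did not work on Ad-Null; there the 612 highest scores (7.00%) were taken out in an alternative. For shares and scores cells were thinned to 2000 UMIs. Motifs were searched as exact letters on both strands of RefSeq promoters. The steps were tested on simulated counts that held counting error alone, without variation between tumors or cells. Planted 2-fold changes were recovered in 100% of genes in the all-cell sums and in 96.97% to 100% in the gates. Of unchanged genes at most 0.24% passed 1.5-fold in a gate. Python 3.11.15, numpy 2.4.6, scipy 1.17.1, pandas 2.3.3, scanpy 1.11.5, matplotlib 3.10.9 and R 4.3.3 were used, with edgeR 4.0.16 for TMM factors only. The UMI counts assume that PCR copies share an identifier. Gene coordinates are those of GENCODE on GRCm38, which holds 32158 of the 32285 gene IDs. Some genes of the lists and of the named-gene rule are not reported here.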

Additional observations from a re-analysis of the deposited data

Results flagged for a closer look

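Genes past 1.5-fold in opposite directions in 2 gates are given here. The difference between the gates was not tested.

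The melanoma genes Pmel, Tyrp1 and Dct, of the pigment pathway, were higher in the C1q gate of Ad-mIFNB (2.55, 2.14 and 1.94 on the log2 scale) and lower in the Cd209a gate (-3.52, -3.50 and -4.38). Mgl2, a lectin of cDC2 and macrophages, was at 811 CPM against 420 in the Cd209a gate (0.94) and 37.6 against 88.6 in the mature DC gate (-1.13). Ctsl was at 1342 CPM against 806 in the C1q gate (0.73) and 37.4 against 73.8 in the Cd209a gate (-0.89). Klrb1b, a C-type lectin-like receptor, was at 86.3 CPM against 50.6 in the mature DC gate (0.72) and 65.7 against 126 in the Cd209a gate (-0.89). In cells thinned to 2000 UMIs, Ctsl was at 0.53 and -0.44 and Klrb1b in the mature DC gate at 0.14, all short of 1.5-fold, and with gates of 1 UMI Pmel and Tyrp1 were at 0.46 and 0.36 in the C1q gate.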

How the results depend on the processing

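No paired analysis was possible because each treatment has 1 library and the labels give no replicate numbers; for the same reason no replicate could be left out. There were 13 alternatives planned and 2 added after seeing the data (the mature DC gate without Siglech cells and the C1q gate without melanoma-marker cells). Of 1620 alternative values of called named genes, 1616 kept their sign and 1596 stayed past 1.5-fold. Most of these genes were picked for extreme ratios in the same data, which favors a kept sign. The alternatives with a floor of 50 CPM and with no CPM floor cannot change a ratio. In cells thinned to 2000 UMIs, 76 of 153 named ratios moved outside their interval of counting error. The 4 reversals were Dct in the C1q gate with gates of 1 UMI (-0.066), and Tyrp1 (-0.79), Pmel (-0.27) and Dct (-0.39) there without melanoma-marker cells. The reversals without melanoma-marker cells are in the genes by which those cells were chosen, so they are not an independent check. The cause of the reversal with gates of 1 UMI was not tested.

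Counts of genes past 1.5-fold moved by over 1.5 times as follows. With a floor of 50 CPM, which tests fewer genes, lower genes were 76 over all cells, 85 in the cDC1 gate, 51 in the Cd209a gate, 90 in the mature DC gate and 65 in the C1q gate, and higher genes were 170 in the Cd209a gate and 276 in the mature DC gate. With no CPM floor, lower genes were 221, 292, 331, 335 and 216 in the same order of cells. Thinned to 2000 UMIs per cell, lower genes were 470, 599 and 515 in the cDC1, Cd209a and C1q gates, and higher genes 535 and 548 in the last 2. Gates of 1 UMI gave 539 lower genes in the mature DC gate, and counting cells of several gates in each gave 195 in the Cd209a gate. With doublets removed 327 genes were higher and 140 lower over all cells, and the counts in each gate stayed within 1.5 times.

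Differences in gate share with the stricter cell filter were -12.6 points for the Cd209a gate and -3.78 for the C1q gate. In thinned cells they were -5.11 (Cd209a), 2.21 (mature DC) and -3.44 (C1q). Depth limits genes below 20 CPM, above all in the gates of 128 to 239 Ad-mIFNB cells.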

Other observations

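Cells that passed no gate, 59.4% of Ad-mIFNB and 44.1% of Ad-Null, had all 49 effectors higher (median 1.61). Plac8 was at 2016 CPM against 1102 there (0.87), and Ltb, lymphotoxin beta, at 108 against 34.7 (1.51). Lipg was at 95.2 against 5.02 CPM and Apod at 175 against 17.1. Of 13 measured genes of alternative activation 10 were lower, and of 28 cell cycle genes 18 were lower and 1 was higher. Of all genes measured in these cells 7.16% were higher and 5.74% lower. All 10 melanoma markers were lower in these cells, at a summed 947 CPM against 2277, and of 9 macrophage markers 7 were lower (612 against 834). Their part in the other lower genes was not tested.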
